A study of Mus musculus with 12 samples.

Results

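The deletions of *Sox2* and of *Nr2f1* from the visual thalamus were compared by the interaction of line and genotype. For each gene this is the log2 change in *Sox2* mutants against *Sox2* controls, minus the log2 change in *Nr2f1* mutants against *Nr2f1* controls. All 12 RNA-seq libraries of the series entered, and 15989 of the 24480 genes in each table had enough counts to be tested. A difference was called at a false discovery rate (FDR, the Benjamini-Hochberg adjusted p of edgeR's quasi-likelihood F-test over all genes tested) below 0.01, and it was called for 231 genes, which are the members described here. Each library was made from dorsal lateral geniculate nuclei (dLGN, the thalamic relay of the visual pathway) pooled from 3 newborn mice at postnatal day 0. The 3 *Sox2* mutant libraries came from animals labelled Sox2flox/flox;Ror-alphaCre, and the 3 *Sox2* control libraries from Sox2flox/flox or Sox2flox/+ littermates without Cre. The 3 *Nr2f1* mutant libraries came from Nr2f1 flox/flox;Ror-alphaCre animals. The label of the 3 *Nr2f1* control libraries names the Cre allele and also no Cre, and the study's methods describe flox/flox or flox/+ littermates without Cre. Cre is expressed from the *Rora* locus in postmitotic cells of the sensory thalamus, so that both mutant groups carried it and other cells of the dissected nucleus kept both genes. The *Sox2* controls carried no Cre by their labels, while for the *Nr2f1* controls this rests on the words no Cre in a label that also names the allele and on the study's methods.

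SOX2 is a transcription factor of the SOX family, best known in stem cells and also present in differentiated thalamic neurons. NR2F1, also called COUP-TFI, is an orphan nuclear receptor that patterns cortical areas and sensory thalamus. Both bind DNA directly, SOX factors at short cores such as ACAAAG and ACAATG and COUP-TF receptors at repeats of AGGTCA, and both are found in the projection neurons that carry retinal signals from the dLGN to the visual cortex.

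The libraries held 39293465 to 50095344 estimated counts, and any 2 libraries of a group differed by more than counting noise, so that 3 libraries were counted in each group. Levels are given as CPM, counts relative to the library total after TMM scaling, in the order controls 1, 2 and 3 and mutants 1, 3 and 4 for the *Sox2* line and controls B, D and E and mutants A, B and C for the *Nr2f1* line. A change is printed as log2 ± SE. No label says that libraries of a group came from separate litters, so the tests measure the spread between these pools. In 4 libraries the sex-specific genes pointed to animals of 1 sex. The summed level of the female-specific genes *Xist* and *Tsix* was 0.887 CPM in *Sox2* control 2, 1.57 CPM in *Sox2* mutant 1 and 0.855 CPM in *Nr2f1* control E, against 291 CPM or more in the other libraries, and 4 male-specific genes summed to 0 CPM in *Nr2f1* mutant A. Summed levels of 15 meningeal fibroblast genes ranged from 1032 to 4666 CPM over the libraries. In a bulk sample fewer cells of a type and less RNA per cell cannot be told apart.

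The targeted genes were checked first. *Sox2* was at 355, 358 and 382 CPM in *Sox2* controls and at 115, 150.2 and 151 CPM in *Sox2* mutants, a change of -1.40 ± 0.11 (FDR 2.08e-06). In the *Nr2f1* line it was at 354, 346 and 377.2 CPM in controls and 239.5, 281 and 214 CPM in mutants, a smaller change of -0.55 ± 0.11 (FDR 0.00654). Every mutant library of either line was below every control library of that line for *Sox2*. *Nr2f1* was at 314, 373 and 383 CPM in *Nr2f1* controls and 106, 152 and 102 CPM in *Nr2f1* mutants, a change of -1.57 ± 0.16 (FDR 6.41e-05). In the *Sox2* line it was at 302, 341 and 344 CPM in controls and 225, 312 and 219.8 CPM in mutants (-0.38 ± 0.15, FDR 0.0841), a change that did not pass. Each targeted gene was thus lowest in the group labelled as its mutant. *Sox2ot*, the long noncoding gene around *Sox2*, rose from 35.8, 30.4 and 34.6 to 73.3, 73.7 and 70.5 CPM in the *Sox2* line (FDR 0.00165), and its change in the *Nr2f1* line was -0.14 ± 0.21 (FDR 0.749). The difference for *Sox2ot* did not pass (FDR 0.0299). For both targeted genes the difference was called at an FDR just under the threshold (0.00603 for *Sox2* and 0.00742 for *Nr2f1*). The *Sox2* difference passed in 3 of the 12 fits that left out 1 library (FDR up to 0.0252, without *Nr2f1* control D) and the *Nr2f1* difference passed in 3 of the 12 fits that left out 1 library (FDR up to 0.0305, without *Nr2f1* mutant A).

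*Rora*, the nuclear receptor gene whose locus carries Cre in both mutants, differed between the lines. It was at 358, 337 and 298 CPM in *Sox2* controls and 80.1, 99.95 and 75.7 CPM in *Sox2* mutants, a change of -1.96 (SE 0.13, FDR 9.71e-07). The *Nr2f1* line had 385, 346 and 417 CPM in controls and 366, 335 and 263 CPM in mutants, groups that overlap, with a change of -0.25 ± 0.12 (FDR 0.257). The difference was -1.71 (95% confidence interval -2.09 to -1.32, FDR 0.000118). Both mutant groups carry the same insertion, and its own effect cannot be told apart from that of either deletion within a line.

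Across the genes tested, 1.44% had a called difference. The *Sox2* change was the lower of the pair for 178 genes (1.11% of those tested) and the higher for 53 (0.331%). The absolute difference ranged from 0.417 to 3.37 with a median of 0.939. At an unadjusted p below 0.05 there were 2583 genes, and the FDR was 0.00992 for the last member inside the threshold and 0.01005 for the first gene outside it. DESeq2, with its own size factors, called 345 genes lower and 195 higher. With libraries of the same number or letter as a block, 302 genes were called, 207 of them lower and 95 higher, so that the higher group grew by more than 1.5 times. Without the 4 libraries of 1 sex, which leaves 2 libraries in each group, 24 genes remained, 22 lower and 2 higher. For comparison, the control groups of the lines differed in 0.469% of genes, and 3 of the 231 members were among those. Within the *Sox2* line 6.7% of the genes tested fell and 6.28% rose, and within the *Nr2f1* line 1.38% fell and 1.31% rose.

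A gene that passes in 1 mutant alone is not thereby shown to differ, and the interaction separated these cases. Of the 1832 genes called in *Sox2* mutants and not in *Nr2f1* mutants, 155 (8.46%) had a called difference and 1677 had none. Of the 187 genes called in *Nr2f1* mutants and not in *Sox2* mutants, 40 (21.4%) had a called difference and 147 had none. At the same FDR a smaller p was needed in the *Nr2f1* line, with 430 genes called, than in the *Sox2* line, with 2075. These counts and shares therefore do not compare the lines at an equal bar. Called in both mutants were 243 genes, of which 219 changed in the same direction and 24 in opposite directions. All 24 of the latter had a called difference, as against 7 of the former. Opposite changes that both pass add up in the difference, so these 24 calls were all but given in advance. The remaining 5 members were called in neither line. At the same FDR threshold the paper reports more genes called in *Nr2f1* mutants and more called in both mutants, nearly all of the latter in the same direction. A gene placed here in 1 mutant alone may thus be called in both by the paper. The changes of 137 members had opposite signs, 110 with *Sox2* lower and *Nr2f1* higher and 27 the reverse. Of 65 members named below by rule, 43 passed in each of the 12 fits that left out 1 library, and 18 passed under all 24 alternatives tried. These 18 were *Ebf1*, *Hdc*, *Ift57*, *St14*, *Slc18a2*, *Crtac1*, *Atp8b5*, *Hs3st1*, *Col4a4*, *Tcerg1l*, *Ppp1r16b*, *Vsnl1*, *Efna5*, *Hs6st2*, *Adgrl2*, *Cacna1d*, *Prox1* and *Grik1*. The plot of both changes places these classes around the diagonal of equal change.

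**Figure D1:**
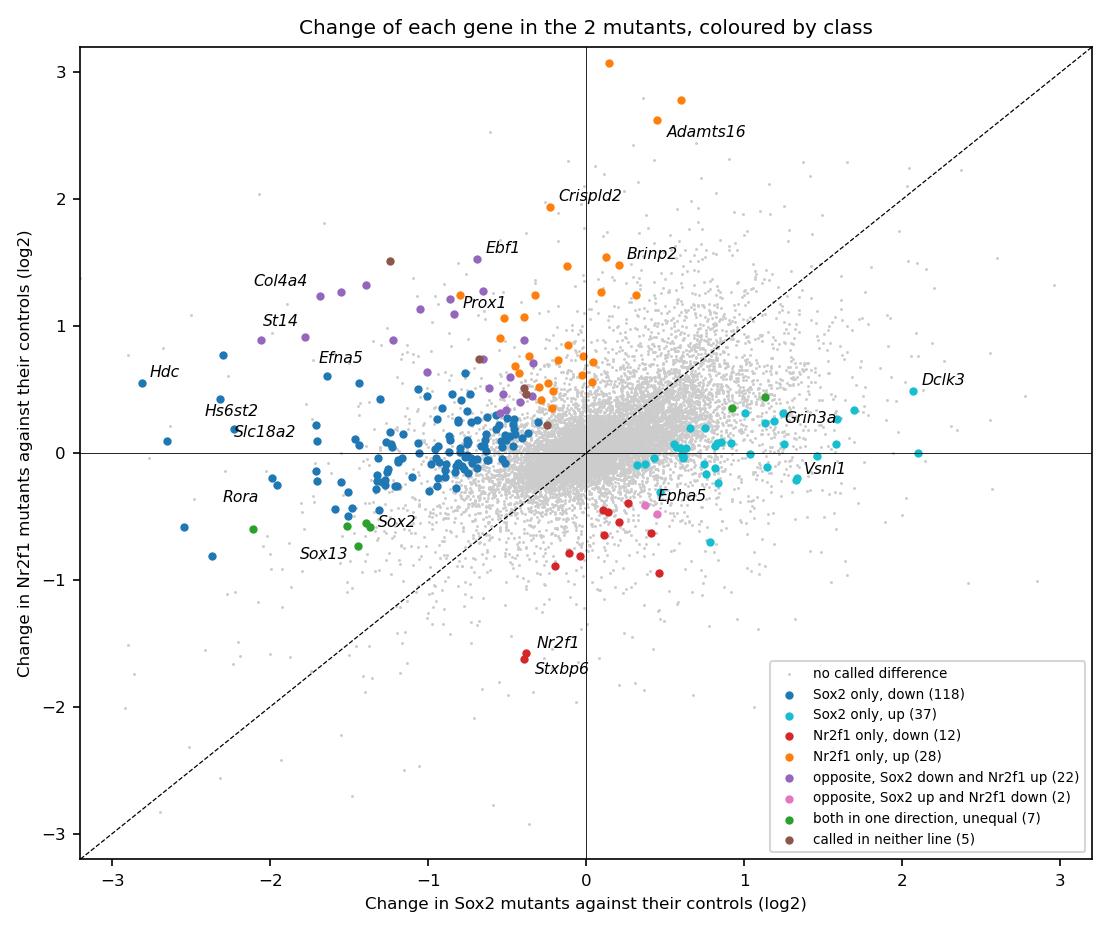
The log2 change of each gene in *Sox2* mutants (horizontal axis) is plotted against that in *Nr2f1* mutants (vertical axis), with the dashed line marking equal change; grey points have no called difference and coloured points are the 231 members by class, with their number in the legend. The 118 genes called and down in *Sox2* mutants alone lie left of the diagonal, at -0.81 to 0.77 on the vertical axis with a median of 0.04, and 12 genes without a called difference lie outside the axes of ±3.2.

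The largest class held 118 genes that fell in *Sox2* mutants and were not called in *Nr2f1* mutants. Their median change was -0.89 in *Sox2* mutants and 0.04 in *Nr2f1* mutants, beside medians of 0.008 and 0.015 over all genes tested. For 91 of the 118 the 95% confidence interval of the *Nr2f1* change lay wholly within ±0.5, and for 46 the *Nr2f1* change had an unadjusted p below 0.05, so that a failure to pass in *Nr2f1* mutants does not show that *Nr2f1* had no effect on these genes.

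*Hdc*, which encodes histidine decarboxylase, the enzyme that makes histamine, had the largest difference of all members, -3.37 (95% confidence interval -3.81 to -2.93, FDR 2.09e-06). Its level was 21.7, 25.2 and 26.3 CPM in *Sox2* controls and 2.70, 3.199 and 4.49 CPM in *Sox2* mutants, 14.2% of the control mean. In the *Nr2f1* line it was 23.7, 21.2 and 21.9 CPM in controls and 28.7, 34.9 and 34.3 CPM in mutants. Every *Nr2f1* mutant library thus lay above the controls, with a change of 0.55 ± 0.13 that did not pass (FDR 0.0267). *Slc18a2*, the vesicular monoamine transporter, was at 399, 396 and 402 CPM in *Sox2* controls and 123, 111 and 133 CPM in mutants (-1.70 ± 0.09, FDR 1.35e-07). It was at 435, 348 and 402 CPM in *Nr2f1* controls and 433, 449.6 and 381 CPM in mutants (0.09 ± 0.09, FDR 0.594), and these groups overlap. These were the only members among the 16 genes tested of monoamine and histamine synthesis, uptake and breakdown, beside 1.44% of all genes tested. *Slc6a4*, the plasma membrane serotonin transporter of that list, named after its values were seen, fell in both mutants, with a change of -1.40 for *Sox2* deletion and -1.88 for *Nr2f1* deletion (FDR 0.0015 and 0.000741), and had no called difference (FDR 0.594). In newborn mice sensory thalamic neurons transiently take up serotonin, which they do not make, through SLC6A4 and store it through the product of *Slc18a2*.

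Heparan sulfate, the sugar chain of cell surface proteoglycans that binds guidance cues and growth factors, is modified by sulfotransferases. *Hs3st1*, which adds 3-O-sulfate, was at 97.4, 96.8 and 81.7 CPM in *Sox2* controls and 21.7, 26.0 and 21.8 CPM in *Sox2* mutants, against 94.96, 89.3 and 106 and 89.2, 88.6 and 75.8 CPM in *Nr2f1* controls and mutants. *Hs6st2*, which adds 6-O-sulfate, was at 268, 259.6 and 206 CPM and 45.1, 67.2 and 44.0 CPM in *Sox2* controls and mutants, and at 282, 258 and 296 CPM and 349.9, 331 and 273 CPM in *Nr2f1* controls and mutants. The *Sox2* mutants were far below their controls for both enzymes, with changes of -1.99 ± 0.10 and -2.23 ± 0.16, whereas the *Nr2f1* mutants were slightly below their controls for *Hs3st1* and overlapped them for *Hs6st2*. Neither change passed in the *Nr2f1* line, at -0.20 ± 0.10 (FDR 0.253) and 0.19 ± 0.15 (FDR 0.491). The difference was called at an FDR of 1.08e-05 and 2.46e-05. Over all genes tested 6.7% fell and 6.28% rose in *Sox2* mutants, and 1.38% fell and 1.31% rose in *Nr2f1* mutants. Of 37 heparan sulfate enzymes and core proteins tested, 6 fell and 3 rose in *Sox2* mutants and 5 fell and 1 rose in *Nr2f1* mutants. A difference was called for 3 of the 37, beside 1.44% of all genes tested. The third was the core protein *Gpc4*, a glypican, called in neither line, with changes of -0.68 ± 0.17 and 0.74 ± 0.16 (FDR of the difference 0.00393), a call that passed in 5 of the 12 fits that left out 1 library (FDR up to 0.0161, without *Sox2* mutant 4).

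*Efna5* encodes an ephrin-A ligand, a repulsive cue for retinal and thalamic axons. It fell in *Sox2* mutants, from 101, 103 and 85.0 to 31.0, 34.3 and 27.6 CPM (-1.64 ± 0.14, FDR 4.53e-06). In the *Nr2f1* line it was at 97.2, 92.7 and 99.9 CPM in controls and 179, 149 and 114 CPM in mutants, all 3 mutants above the controls, but the change of 0.61 ± 0.13 did not pass (FDR 0.0135). The paper, however, names *Efna5* among guidance genes significantly changed in both mutants. Its list of the genes most lowered in *Sox2* mutants does not mark *Efna5* as changed in *Nr2f1* mutants. *Ift57*, a part of the intraflagellar transport complex of cilia, had little spread. Its level was 57.8, 56.7 and 57.4 CPM in *Sox2* controls and 25.1, 24.4 and 23.6 CPM in *Sox2* mutants, 42.5% of the control mean. The *Nr2f1* groups, at 54.6, 59.5 and 58.1 and 60.3, 63.0 and 57.2 CPM, overlapped, and the 95% confidence interval of their change was -0.05 to 0.19. *Tcerg1l*, named for its likeness to a transcription elongation regulator, fell by 0.81 ± 0.06 after *Sox2* deletion, and its change after *Nr2f1* deletion, 0.24 ± 0.06, did not pass (FDR 1.32e-06 and 0.0251).

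The class also held regulators, transporters and receptors of neurons. The zinc finger transcription factor *Sp9* fell from 392, 333 and 345 to 93.2, 124 and 109 CPM in *Sox2* mutants, and its *Nr2f1* groups overlapped at 447, 392 and 379 and 379, 407 and 316 CPM. *Slc17a6*, the vesicular glutamate transporter of thalamic neurons, fell from 267, 220.4 and 199 to 121, 118 and 115 CPM in *Sox2* mutants and was at 267, 215 and 263 and 260.1, 254 and 209.6 CPM in the *Nr2f1* line, again overlapping. Its difference (FDR 0.00467) passed in 2 of the 12 fits that left out 1 library (FDR up to 0.0196, without *Nr2f1* mutant A). The kainate receptor subunit *Grik3* (-1.32 ± 0.11 in *Sox2* mutants, -0.18 ± 0.10 in *Nr2f1* mutants) and *Cacng5*, an auxiliary subunit of AMPA receptors (-1.16 ± 0.11 and -0.04 ± 0.11), fell with the AMPA receptor subunit *Gria2* (-0.75 ± 0.07 and -0.16 ± 0.07) and the AMPA receptor assembly factor *Frrs1l* (-1.51 ± 0.13 and -0.50 ± 0.12). *Gria2* and *Frrs1l* were chosen after their values were seen. None of these 4 passed in *Nr2f1* mutants, where FDR ranged from 0.0298 to 0.864. The paper, however, lists *Frrs1l* as significantly lowered in *Nr2f1* mutants too. *Kcnf1*, a modulatory potassium channel subunit, was the only member among 77 potassium channel genes tested, beside 1.44% of all genes tested. Its changes were -1.27 ± 0.12 and 0.09 ± 0.12. In *Sox2* mutants 15 of the 77 fell and 7 rose, beside 6.7% and 6.28% of all genes tested.

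Further members of this class were named from the lists and stood nearer to the threshold. The postsynaptic adhesion protein *Lrrtm1* changed by -0.98 ± 0.10 and -0.09 ± 0.10 and passed in 8 of the 12 fits that left out 1 library (FDR up to 0.013, without *Sox2* control 2). The Eph receptor *Ephb6* changed by -0.47 ± 0.08 and 0.23 ± 0.08 and passed in 4 of the 12 fits that left out 1 library (FDR up to 0.0236, without *Nr2f1* control D). *Lgr5*, a receptor for R-spondins, changed by -1.19 ± 0.15 and -0.06 ± 0.14 and passed in 2 of the 12 fits that left out 1 library (FDR up to 0.0235, without *Nr2f1* control E). The nuclear receptor gene *Pparg* was scarce, at 0.845, 0.817 and 1.06 and 0.0482, 0.206 and 0.286 CPM in *Sox2* controls and mutants and at 0.768, 0.411 and 0.526 and 0.962, 1.00 and 0.933 CPM in *Nr2f1* controls and mutants. It changed by -2.30 ± 0.43 and 0.77 ± 0.37 and passed in 3 of the 12 fits that left out 1 library (FDR up to 0.0271, without *Nr2f1* control D). The neuronal RNA-binding protein *Elavl4* changed by -0.41 ± 0.07 and 0.12 ± 0.07 and passed in 3 of the 12 fits that left out 1 library (FDR up to 0.0324, without *Nr2f1* mutant A). *Syt13*, of the synaptotagmin family, changed by -0.63 ± 0.08 and -0.05 ± 0.08 and passed in 2 of the 12 fits that left out 1 library (FDR up to 0.0412, without *Nr2f1* control D). The actin-binding protein *Synpo2*, a thalamic marker, changed by -0.74 ± 0.16 and 0.47 ± 0.16 and passed in 3 of the 12 fits that left out 1 library (FDR up to 0.0335, without *Nr2f1* control D). With the replicate block the FDR was 0.012 for *Syt13* and 0.0128 for *Synpo2*, and neither passed.

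**Figure D2:**
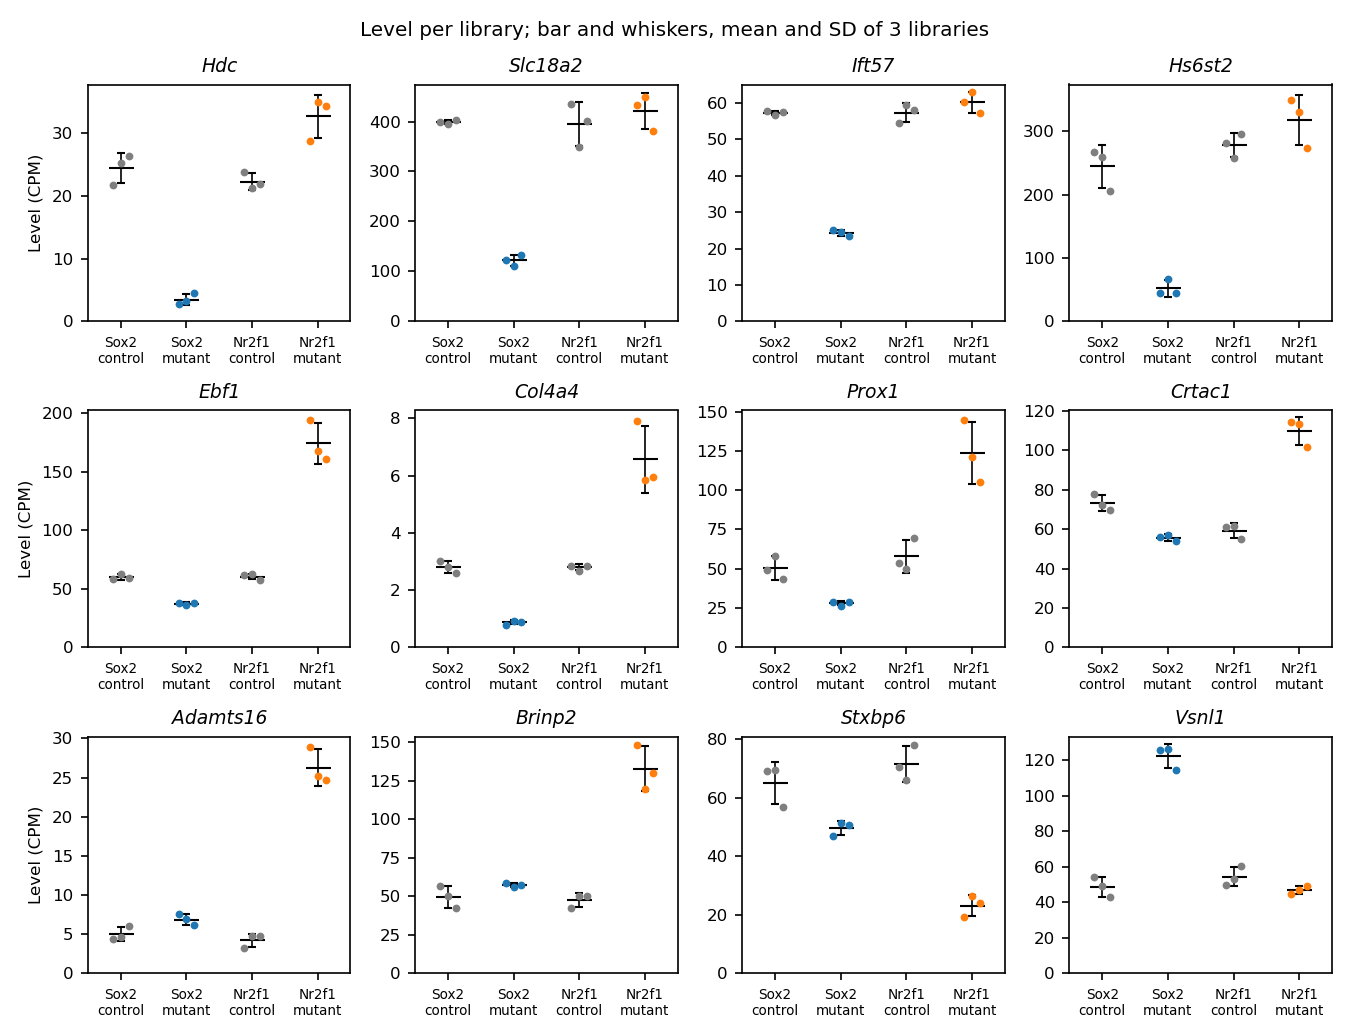
Level in CPM (vertical axes, linear and from 0) of 12 members in each library, by group, with the mean (bar) and SD (whiskers) of 3 libraries. *Hdc*, *Slc18a2*, *Ift57* and *Hs6st2* are low in the *Sox2* mutants, *Ebf1*, *Col4a4*, *Prox1* and *Crtac1* move apart in the mutants of the 2 lines, *Adamts16* and *Brinp2* are high and *Stxbp6* low in the *Nr2f1* mutants, and *Vsnl1* is high in the *Sox2* mutants.

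In 37 genes the level rose in *Sox2* mutants without a call in *Nr2f1* mutants, at medians of 0.83 and 0.04, and for 28 of the 37 the interval of the *Nr2f1* change lay within ±0.5. *Vsnl1*, a neuronal calcium sensor of the visinin-like family, led them. It was at 54.1, 49.5 and 42.8 CPM in *Sox2* controls and 126, 127 and 114 CPM in *Sox2* mutants, while the *Nr2f1* groups were at 49.9, 52.9 and 60.5 and 44.7, 47.1 and 49.2 CPM. The mutants of the *Sox2* line were all above their controls and those of the *Nr2f1* line all slightly below, the latter without a call (FDR 0.185). *Vcan*, a chondroitin sulfate proteoglycan of the extracellular matrix, was at 97.0, 92.4 and 95.4 CPM in *Sox2* controls and 199, 228 and 198 CPM in mutants, a rise of 1.13 ± 0.06 beside 0.24 ± 0.06 in the *Nr2f1* line (FDR 0.045). Of 13 lecticans and partners tested, 5 rose in *Sox2* mutants and 0 in *Nr2f1* mutants, but besides *Vcan* only the link protein *Hapln4* had a called difference, in the other direction (-0.38 ± 0.11 and 0.47 ± 0.11, FDR 0.00751). Over all genes tested 6.28% rose in *Sox2* mutants, 1.31% rose in *Nr2f1* mutants and 1.44% had a called difference. The *Hapln4* call passed in 1 of the 12 fits that left out 1 library (FDR up to 0.0248, without *Sox2* control 1) and was lost with the replicate block (FDR 0.0157).

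A glutamate receptor gene was also found here. *Grin3a*, an NMDA receptor subunit that lowers calcium entry, rose from 124, 126 and 104 to 265, 261 and 277 CPM in *Sox2* mutants and was at 118, 117 and 121 and 132, 134 and 158 CPM in *Nr2f1* controls and mutants. *Dclk3*, a kinase of the doublecortin-like family, changed by 2.07 ± 0.15 and 0.49 ± 0.15, and the zinc finger gene *Tshz2* by 0.82 ± 0.08 and -0.12 ± 0.09. *Pcdhgc5* changed by 0.76 ± 0.09 and -0.16 ± 0.09, but it shares its last exons with the other genes of the gamma protocadherin cluster, so that counts could be split among them and its value is uncertain.

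Microglial genes formed a further group among those that rose. Of 16 microglial markers tested, 13 rose in *Sox2* mutants and 2 in *Nr2f1* mutants, and 4 had a called difference, all higher in the *Sox2* line. Over all genes tested 6.28% rose in *Sox2* mutants and 1.31% in *Nr2f1* mutants. A called difference was found for 1.44%, with the *Sox2* change the higher for 0.331%. *P2ry12*, the purinergic receptor of resting microglia, was at 6.25, 6.89 and 6.21 CPM in *Sox2* controls and 19.1, 15.4 and 18.6 CPM in *Sox2* mutants, and at 5.30, 5.15 and 5.39 and 4.55, 4.76 and 6.25 CPM in *Nr2f1* controls and mutants, where the groups overlap. The receptor *Trem2* rose by 1.58 ± 0.15 and changed by 0.26 ± 0.15, and its difference passed in 10 of the 12 fits that left out 1 library (FDR up to 0.0103, without *Sox2* mutant 4). *Cx3cr1*, the fractalkine receptor, rose in both, by 1.13 ± 0.08 and 0.44 ± 0.08, and unequally (FDR of the difference 0.00402), a call that passed in 3 of the 12 fits that left out 1 library (FDR up to 0.0149, without *Nr2f1* mutant A). The summed level of the 16 markers was 185 to 216 CPM in *Sox2* controls, 389 to 457 CPM in *Sox2* mutants, 149 to 179 CPM in *Nr2f1* controls and 190.3 to 241 CPM in *Nr2f1* mutants, so that mutants lay above controls in each line. Their part in the other rises was not tested. Exons of *P2ry12* and *Cx3cr1* overlap those of a gene on the opposite strand (*Med12l* and *Gm33858*), and whether the counting used strand is not given in the sources used here.

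**Figure D3:**
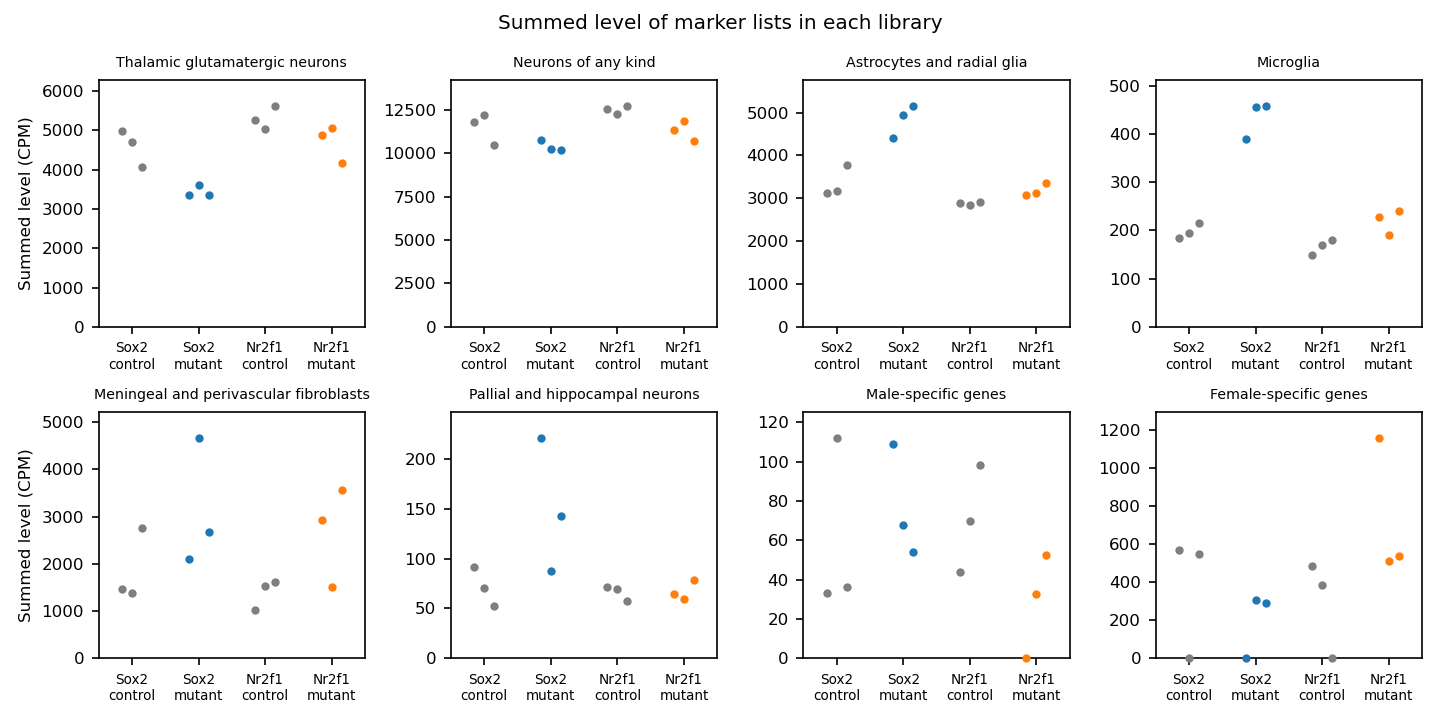
Summed level in CPM (vertical axes, from 0) of 8 marker lists in each library (points) by group. Microglial and astrocyte sums are higher in the 3 *Sox2* mutants than in every other library, the thalamic neuron sum is lowest there, and the sex-specific genes mark 4 libraries of 1 sex.

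Of 16 astrocyte and radial glia genes, 12 rose in *Sox2* mutants and 1 rose in *Nr2f1* mutants, and edgeR called a difference for 0, with 10 at an unadjusted p below 0.05 and 2 called by DESeq2. The difference lay above 0 for 15 of these 16, and its median was 0.37, against -0.007 over all genes tested. Their summed level was 3119 to 3778 CPM in *Sox2* controls and 4404 to 5145 CPM in *Sox2* mutants, and 2855 to 2917 and 3087 to 3360 CPM in *Nr2f1* controls and mutants. Of 18 markers of thalamic glutamatergic neurons, all detected, 8 fell and 2 rose in *Sox2* mutants, 2 fell and 1 rose in *Nr2f1* mutants, and 3 (*Rora*, *Slc17a6* and *Synpo2*) had a called difference. Their summed level was 3346 to 3613 CPM in *Sox2* mutants and 4059 to 4991 CPM in their controls, which do not overlap, whereas the *Nr2f1* groups overlapped (4174 to 5062 CPM in mutants and 5043 to 5612 CPM in controls). For comparison with the astrocyte and thalamic lists, 6.7% of all genes tested fell and 6.28% rose in *Sox2* mutants. In *Nr2f1* mutants 1.38% fell and 1.31% rose, and 1.44% had a called difference. Among 12 general neuronal markers only *Elavl4* had a called difference. By edgeR 0 differences were called among the markers of GABAergic neurons, midbrain-derived interneurons, prethalamus, oligodendrocyte lineage, border macrophages, dividing cells, choroid plexus, pericytes, endothelial cells, meningeal fibroblasts, red blood cells, habenula, midbrain, pallial neurons and either sex. With the astrocyte list these made 163 genes tested, of which 28 had an unadjusted p below 0.05 and DESeq2 called 4. The difference lay above 0 for 11 of 12 pallial markers (median 1.33) and 10 of 10 prethalamic markers (0.72). It did so for 14 of 14 dividing cell markers (0.29) and 13 of 14 GABAergic markers (0.34). It lay below 0 for 12 of 15 meningeal fibroblast markers (-0.25) and above 0 for 4 of 4 male-specific genes (1.7). The median change of the male-specific genes was 0.299 in *Sox2* mutants and -1.37 in *Nr2f1* mutants. For the 2 female-specific genes the difference lay above 0 for 1 and below 0 for 1. The lack of calls thus does not show equal content of these cells, or an equal mix of sexes, in the lines.

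Genes with a called difference that passed in *Nr2f1* mutants alone were fewer. Of 28 that rose in *Nr2f1* mutants alone, with medians of 0.88 in *Nr2f1* mutants and -0.20 in *Sox2* mutants, 13 had a 95% confidence interval of the *Sox2* change within ±0.5, and 14 had an unadjusted p below 0.05 for it. *Adamts16*, a secreted metalloprotease, was at 3.26, 4.74 and 4.71 CPM in *Nr2f1* controls and 29.0, 25.2 and 24.6 CPM in *Nr2f1* mutants, a rise of 2.63 ± 0.16 (FDR 1.79e-06). In the *Sox2* line it was at 4.38, 4.69 and 6.06 CPM in controls and 7.54, 6.88 and 6.18 CPM in mutants (0.45 ± 0.16, FDR 0.0528). The rise in *Nr2f1* mutants was clear of all controls and that in *Sox2* mutants was small and did not pass. *Crispld2*, a secreted protein with cysteine-rich domains, was at 2.54, 3.10 and 3.13 and 10.9, 11.2 and 11.6 CPM in *Nr2f1* controls and mutants and at 4.31, 4.90 and 6.09 and 3.66, 5.33 and 4.05 CPM in the *Sox2* line, where the groups overlap. *Nfe2l3*, a transcription factor of the cap'n'collar family, was at 13.2, 10.8 and 12.9 and 26.1, 27.6 and 23.8 CPM in the *Nr2f1* line and at 15.6, 13.3 and 12.5 and 9.69, 10.3 and 11.5 CPM in the *Sox2* line, lower in all 3 *Sox2* mutants without passing (FDR 0.0206).

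*Brinp2*, a neuronal protein of the BRINP family, rose from 42.5, 50.1 and 50.4 to 148, 119.9 and 130.3 CPM in *Nr2f1* mutants, with *Sox2* controls and mutants at 56.7, 50.1 and 42.4 and 58.4, 56.2 and 57.4 CPM. *Mpped2*, a metallophosphoesterase, changed by 1.27 ± 0.11 in *Nr2f1* and 0.09 ± 0.11 in *Sox2* mutants. *Hrk*, a pro-apoptotic member of the BCL2 family, changed by 0.55 ± 0.07 and -0.24 ± 0.07, and the Wnt inhibitor *Sfrp2* by 0.76 ± 0.07 and -0.02 ± 0.07. For these 3 the *Sox2* change had an FDR between 0.0309 and 0.888. Adhesion and synapse genes of the lists that rose in *Nr2f1* mutants alone were the contactin *Cntn4* (0.76 ± 0.13 and -0.36 ± 0.13), the synaptic organiser *Cbln4* (0.85 ± 0.11 and -0.12 ± 0.12) and the cadherin *Cdh6* (0.63 ± 0.13 and -0.42 ± 0.13). The *Cntn4* difference passed in 7 of the 12 fits that left out 1 library (FDR up to 0.0139, without *Nr2f1* control D). That of *Cbln4* passed in 4 of the 12 fits that left out 1 library (FDR up to 0.0182, without *Nr2f1* control D). That of *Cdh6* passed in 5 of the 12 fits that left out 1 library (FDR up to 0.0228, without *Nr2f1* control D).

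*Nr2f1* itself and 11 other genes fell in *Nr2f1* mutants alone. *Stxbp6*, or amisyn, a SNARE-binding protein of vesicle release, was at 70.6, 66.0 and 78.1 CPM in *Nr2f1* controls and 19.2, 26.4 and 23.9 CPM in *Nr2f1* mutants, a fall of 1.62 ± 0.11 (FDR 5.83e-06). In the *Sox2* line it was at 69.1, 69.6 and 56.7 and 47.0, 51.3 and 50.8 CPM, lower in all 3 mutants, with a change of -0.39 ± 0.11 that did not pass (FDR 0.0184). The paper lists *Stxbp6* as significantly lowered in both mutants. *Fam172a* fell from 40.3, 41.3 and 43.4 to 22.2, 24.8 and 25.3 CPM in *Nr2f1* mutants and was at 43.1, 41.3 and 41.6 and 37.2, 40.2 and 39.4 CPM in the *Sox2* line. *Nrep*, a small neuronal protein linked to regeneration, fell from 2043, 1991 and 2136 to 1150, 1293 and 1077 CPM and was at 1825, 1949 and 1825 and 1616, 2084 and 1751 CPM in the *Sox2* line, where the groups overlap; its difference passed in 9 of the 12 fits that left out 1 library (FDR up to 0.015, without *Nr2f1* mutant A). *Adamts16* (chr13:70727798-70841845, GRCm38.p6) and *Fam172a* (chr13:77708677-78166240) were the 2 members within 10 Mb of *Nr2f1* (chr13:78188971-78198873), of 66 genes tested there. Of 74 genes tested within 10 Mb of *Sox2*, edgeR called 0, with 12 at an unadjusted p below 0.05 and 2 called by DESeq2. Of 157 within 10 Mb of *Rora*, edgeR and DESeq2 called 0, with 20 at an unadjusted p below 0.05. Among all genes tested 1.44% had a called difference, and nothing is read from counts this small near the 3 genes.

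The kainate receptor subunit *Grik1* was at 65.1, 66.5 and 63.9 CPM in *Nr2f1* controls and 34.5, 46.6 and 45.3 CPM in mutants (-0.63 ± 0.10), and at 55.1, 69.7 and 58.6 and 80.7, 82.3 and 80.9 CPM in the *Sox2* line (0.41 ± 0.10, FDR 0.0103). The groups were apart in both lines and in opposite directions, and the *Sox2* change stood just outside the threshold. *Foxp1*, a forkhead transcription factor, changed by -0.47 ± 0.07 in *Nr2f1* and 0.14 ± 0.07 in *Sox2* mutants, and its difference passed in 5 of the 12 fits that left out 1 library (FDR up to 0.0135, without *Nr2f1* mutant A). The zinc finger gene *Zfp804a* changed by -0.54 ± 0.08 and 0.20 ± 0.08, and its difference passed in 10 of the 12 fits that left out 1 library (FDR up to 0.0128, without *Nr2f1* mutant A). *Sv2b*, a synaptic vesicle glycoprotein, changed by -0.95 ± 0.18 and 0.46 ± 0.17, and its difference passed in 4 of the 12 fits that left out 1 library (FDR up to 0.0203, without *Nr2f1* control E).

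**Figure D4:**
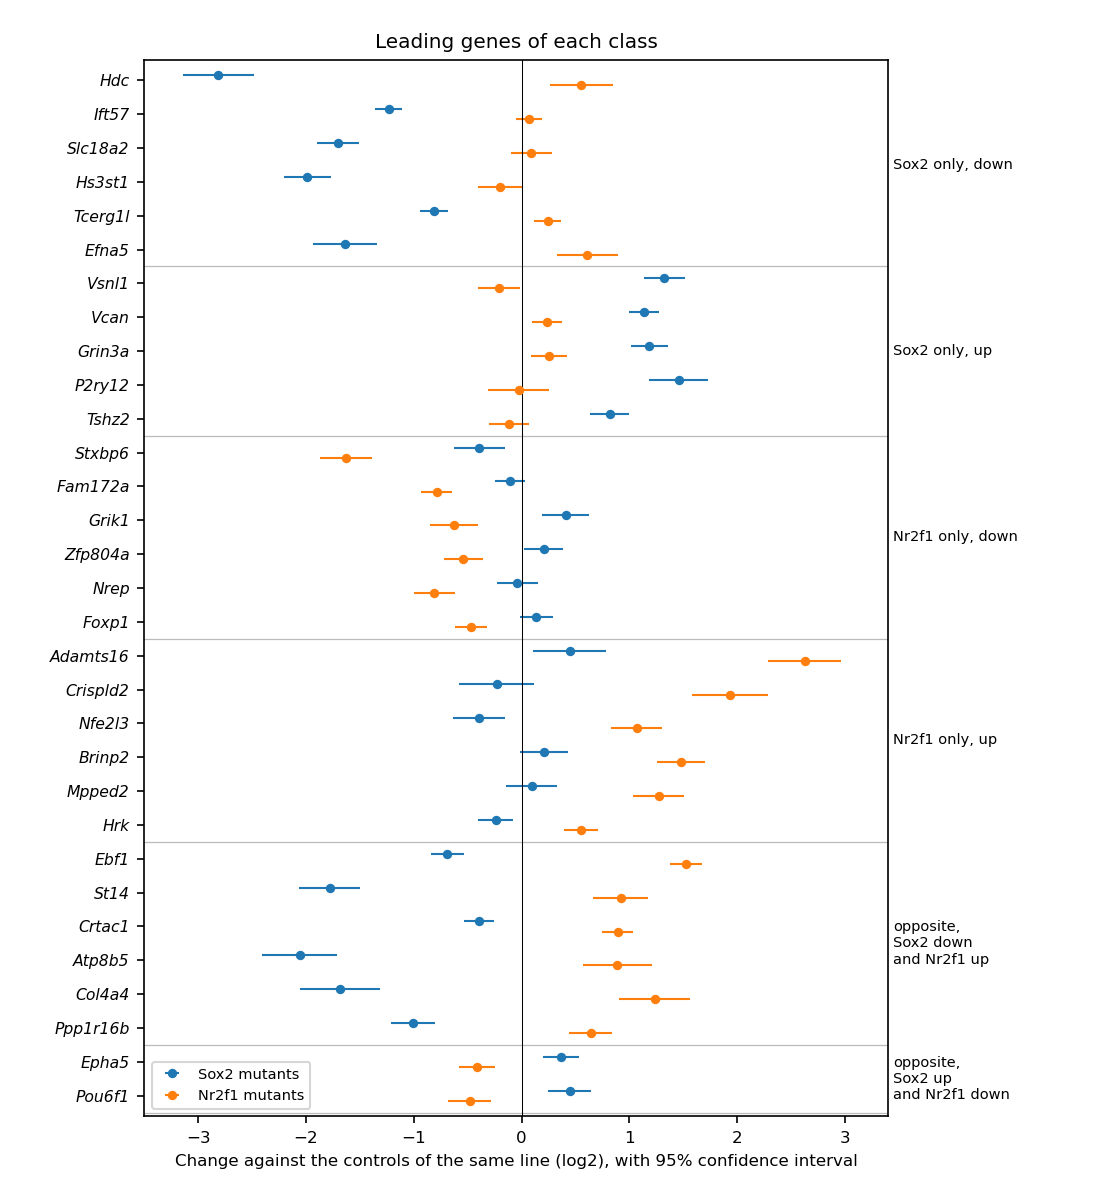
Log2 change against the controls of the same line (horizontal axis) with its 95% confidence interval (lines) in *Sox2* mutants (blue) and *Nr2f1* mutants (orange), for up to 6 genes of each class with the smallest p for the difference. In the upper 4 blocks the change in the other line is the smaller and did not pass, although its interval excludes 0 for some genes such as *Hdc* and *Efna5*, and in the lower 2 blocks the intervals of the mutants lie on opposite sides of 0.

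Opposite changes that both passed were seen for 24 genes, 22 of which fell in *Sox2* mutants and rose in *Nr2f1* mutants. *Ebf1*, a transcription factor of the early B-cell factor family that also acts in neuronal differentiation (chr11:44618100-45008096), had the smallest p of all genes tested. It was at 58.0, 62.7 and 59.0 CPM in *Sox2* controls and 37.8, 35.8 and 38.0 CPM in *Sox2* mutants, a fall to 62.1% of the control mean (-0.69 ± 0.07, FDR 2.02e-05). In the *Nr2f1* line it was at 61.4, 62.2 and 57.6 CPM in controls and 194, 167 and 161 CPM in mutants, 288% of the control mean (1.53 ± 0.07, FDR 1.15e-07). The controls of the lines were alike and the mutants moved apart, a difference of -2.21 (95% confidence interval -2.43 to -2.001, FDR 8.33e-08). Of the other 5 *Ebf* genes and partners tested, edgeR and DESeq2 called 0, and 0 had an unadjusted p below 0.05.

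*Prox1*, a homeodomain transcription factor, was at 49.3, 58.3 and 43.2 and 29.0, 26.4 and 29.1 CPM in *Sox2* controls and mutants and at 53.9, 50.1 and 69.6 and 145, 121 and 105 CPM in *Nr2f1* controls and mutants, with neither pair overlapping. Its changes were -0.84 ± 0.14 (FDR 0.000891) and 1.10 ± 0.14 (FDR 0.000337). *St14*, the membrane serine protease matriptase, was at 4.78, 5.11 and 5.82 and 1.54, 1.55 and 1.47 CPM in the *Sox2* line and at 5.59, 5.42 and 5.66 and 11.9, 9.48 and 10.2 CPM in the *Nr2f1* line. *Crtac1*, a secreted protein also known as LOTUS that antagonises the Nogo receptor, was at 77.7, 72.3 and 69.7 and 56.3, 57.0 and 53.9 CPM in the *Sox2* line and at 61.0, 61.7 and 55.1 and 114, 114 and 102 CPM in the *Nr2f1* line. For *St14* and *Crtac1* too, every mutant library lay outside the range of its controls, below in the *Sox2* line and above in the *Nr2f1* line. *Atp8b5*, a phospholipid flippase, changed by -2.06 ± 0.16 and 0.89 ± 0.15, *Ppp1r16b*, a regulatory subunit of protein phosphatase 1, by -1.01 ± 0.10 and 0.64 ± 0.09, and *Cacna1d*, an L-type calcium channel subunit, by -0.55 ± 0.06 and 0.31 ± 0.06. Exons of *Prox1* and *Cacna1d* overlap those of *Prox1os* and *Chdh* on the opposite strand. Among the other named genes, those of *Ift57*, *Slc18a2*, *Crtac1*, *Adgrl2*, *Sp9*, *Rora*, *Drd5*, *Tshz2*, *Sfrp2*, *Sv2b* and *Nr2f1* also overlap a gene on the opposite strand, and those of *Foxp1* overlap genes on its own strand, so that reads of the partners could have been counted with them.

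The type IV collagen chains of *Col4a3* and *Col4a4* assemble into the same basement membrane protein, and their genes start back to back. *Col4a4* was at 3.02, 2.80 and 2.59 and 0.795, 0.937 and 0.880 CPM in *Sox2* controls and mutants and at 2.85, 2.67 and 2.85 and 7.92, 5.85 and 5.94 CPM in *Nr2f1* controls and mutants. *Col4a3* was at 2.71, 1.77 and 2.34 and 0.892, 0.937 and 0.770 CPM in the *Sox2* line and 3.14, 1.83 and 1.97 and 5.79, 5.29 and 6.27 CPM in the *Nr2f1* line. Both were low in the *Sox2* mutants and high in the *Nr2f1* mutants in every library, with differences of -2.92 and -2.72 (FDR 1.18e-05 and 0.000309). They were the only 2 members among 17 type IV and fibrillar collagen genes tested, beside 1.44% of all genes tested. Exons of *Col4a3* overlap those of *C430014B12Rik* on the opposite strand. In GENCODE release M21 (GRCm38) the first bases of their coding transcripts, chr1:82586849 for *Col4a4* and chr1:82586976 for *Col4a3*, leave 126 bases between them, while the RefSeq span of *Col4a4* reaches further, to chr1:82587034.

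Of the 65 members named by rule, 6 had a start in the RefSeq promoter table (GRCm38.p6) that was both the outer end of the gene's RefSeq span and a coding start in GENCODE, with no annotated exon and no other RefSeq gene in the 250 bases before it. The 250 bases of 4 of these are printed 5′ to 3′. *Efna5* and *Kcnf1* stand for the class that fell in *Sox2* mutants alone, *Trem2* for the class that rose there and *Crispld2* for the class that rose in *Nr2f1* mutants alone. Both SOX cores, ACAAAG and ACAATG, and the COUP-TF motif AGGTCA were searched on both strands, and matches are in capitals.
Efna5, chr17:62881318-62881567, minus strand: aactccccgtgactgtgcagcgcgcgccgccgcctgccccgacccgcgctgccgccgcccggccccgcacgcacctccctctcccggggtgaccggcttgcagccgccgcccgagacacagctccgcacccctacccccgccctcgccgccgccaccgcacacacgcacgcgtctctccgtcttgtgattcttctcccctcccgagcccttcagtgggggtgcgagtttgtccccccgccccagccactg
Kcnf1, chr12:17176889-17177138, minus strand: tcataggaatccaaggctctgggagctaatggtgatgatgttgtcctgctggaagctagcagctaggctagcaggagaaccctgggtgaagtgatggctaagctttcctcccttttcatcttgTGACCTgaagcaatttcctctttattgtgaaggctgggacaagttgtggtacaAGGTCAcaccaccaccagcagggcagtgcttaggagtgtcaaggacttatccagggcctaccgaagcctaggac
Trem2, chr17:48346151-48346400, plus strand: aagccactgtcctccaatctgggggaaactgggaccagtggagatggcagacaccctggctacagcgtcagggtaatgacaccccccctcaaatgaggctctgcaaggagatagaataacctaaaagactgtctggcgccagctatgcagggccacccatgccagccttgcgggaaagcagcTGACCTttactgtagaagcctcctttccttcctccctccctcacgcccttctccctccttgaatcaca
Crispld2, chr8:119992188-119992437, plus strand: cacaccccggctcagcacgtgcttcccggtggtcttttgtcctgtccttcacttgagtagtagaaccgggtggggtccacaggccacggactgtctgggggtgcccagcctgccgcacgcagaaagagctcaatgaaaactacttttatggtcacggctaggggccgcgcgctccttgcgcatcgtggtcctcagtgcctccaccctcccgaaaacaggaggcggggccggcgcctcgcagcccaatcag

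The *Kcnf1* stretch held 2 receptor motifs, the *Trem2* stretch held 1, and the *Efna5* and *Crispld2* stretches held none, while no SOX core was found in any of the 4. In the table's windows of 250 bases before to 50 after the start, a SOX core stood in 19.8% and the receptor motif in 12.2% of 12107 genes tested that had a window (the first listed for each). Only 174 of the 231 members had a window, and 12107 of all 15989 genes tested, under 80% of either. A comparison of the members' shares with the rest is therefore void. A match describes letters in these windows and shows no binding.

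Of the 24, 2 went the other way, rising in *Sox2* mutants and falling in *Nr2f1* mutants. *Epha5*, a receptor for ephrin-A ligands, was at 78.2, 72.9 and 67.5 and 96.5, 90.0 and 96.1 CPM in *Sox2* controls and mutants and at 94.5, 76.8 and 82.0 and 60.2, 65.8 and 64.5 CPM in *Nr2f1* controls and mutants. The POU domain transcription factor *Pou6f1* was at 62.7, 56.9 and 54.8 and 83.3, 74.3 and 80.1 CPM in the *Sox2* line and at 55.6, 69.0 and 70.9 and 44.7, 44.4 and 51.0 CPM in the *Nr2f1* line. Groups did not overlap for either gene in either line, though the changes were small, 0.37 ± 0.08 and -0.41 ± 0.08 for *Epha5* and 0.45 ± 0.09 and -0.48 ± 0.09 for *Pou6f1*. Of 14 ephrin-A ligands and EphA receptors tested, the ligand *Efna5* and the receptor *Epha5* thus had called differences of opposite sign (-2.25 and 0.78).

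In 7 members both mutants changed in the same direction by unequal amounts, each time more in the *Sox2* line. *Adgrl2*, the adhesion receptor latrophilin-2, was at 268, 254 and 265 and 85.3, 99.3 and 91.1 CPM in *Sox2* controls and mutants and at 264, 278 and 258 and 173, 182 and 182 CPM in *Nr2f1* controls and mutants, and the mutants of both lines were below all controls. The transcription factor gene *Sox13* fell by 1.44 ± 0.06 and 0.73 ± 0.05 (FDR of the difference 0.000171), and it was the only member besides *Sox2* among 18 *Sox* genes tested. *Drd5*, a dopamine receptor, fell by 2.11 ± 0.13 and 0.60 ± 0.12, and the calcium-dependent kinase *Camk4*, named after its values were seen, by 1.37 ± 0.09 and 0.58 ± 0.09. The adhesion molecule *Alcam*, of the immunoglobulin family, rose by 0.93 ± 0.07 and 0.35 ± 0.07, a difference that passed in 6 of the 12 fits that left out 1 library (FDR up to 0.014, without *Sox2* control 2). *Cx3cr1* and *Sox2*, given above, complete the class.

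The 30 functional lists held 727 genes tested, of which 44 were members, 34 lower and 10 higher in the *Sox2* line, or 6.05% beside 1.44% of all genes tested. Since these lists were drawn from functions known to matter in this tissue and with earlier results in view, nothing is read from that share. Glutamate receptors and their auxiliary subunits held the most, 8 of 40 tested. Of these 5 were lower in the *Sox2* line (*Grik3*, *Cacng5*, *Gria2*, *Frrs1l* and *Gria1*) and 3 higher (among them *Grin3a* and *Grik1*). *Gria1*, an AMPA receptor subunit called in neither line and named after its values were seen, changed by -0.39 ± 0.12 and 0.52 ± 0.12 (FDR of the difference 0.00891). In *Sox2* mutants 15 of the 40 fell and 8 rose, and in *Nr2f1* mutants 4 fell and 1 rose. Thalamic transcription factors followed with 5 of 19, lower for *Rora*, *Sp9* and *Prox1* and higher for *Foxp1* and *Nr2f1*. Vesicle and release genes held 4 of 45, lower for *Slc17a6* and *Syt13* and higher for *Stxbp6* and *Sv2b*, and synaptic organisers 3 of 42, all lower (*Adgrl2*, *Lrrtm1* and *Cbln4*). Nuclear receptors held 3 of 41 (*Rora*, *Pparg* and *Nr2f1*), Wnt ligands, receptors and inhibitors 2 of 46 (*Lgr5* and *Sfrp2*), immunoglobulin adhesion molecules 2 of 33 (*Alcam* and *Cntn4*), cadherins 1 of 19 (*Cdh6*), monoamine and histamine receptors 1 of 26 (*Drd5*), calcium and HCN channels 1 of 22 (*Cacna1d*), and ephrin-B ligands and EphB receptors 1 of 8 (*Ephb6*).

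**Figure D5:**
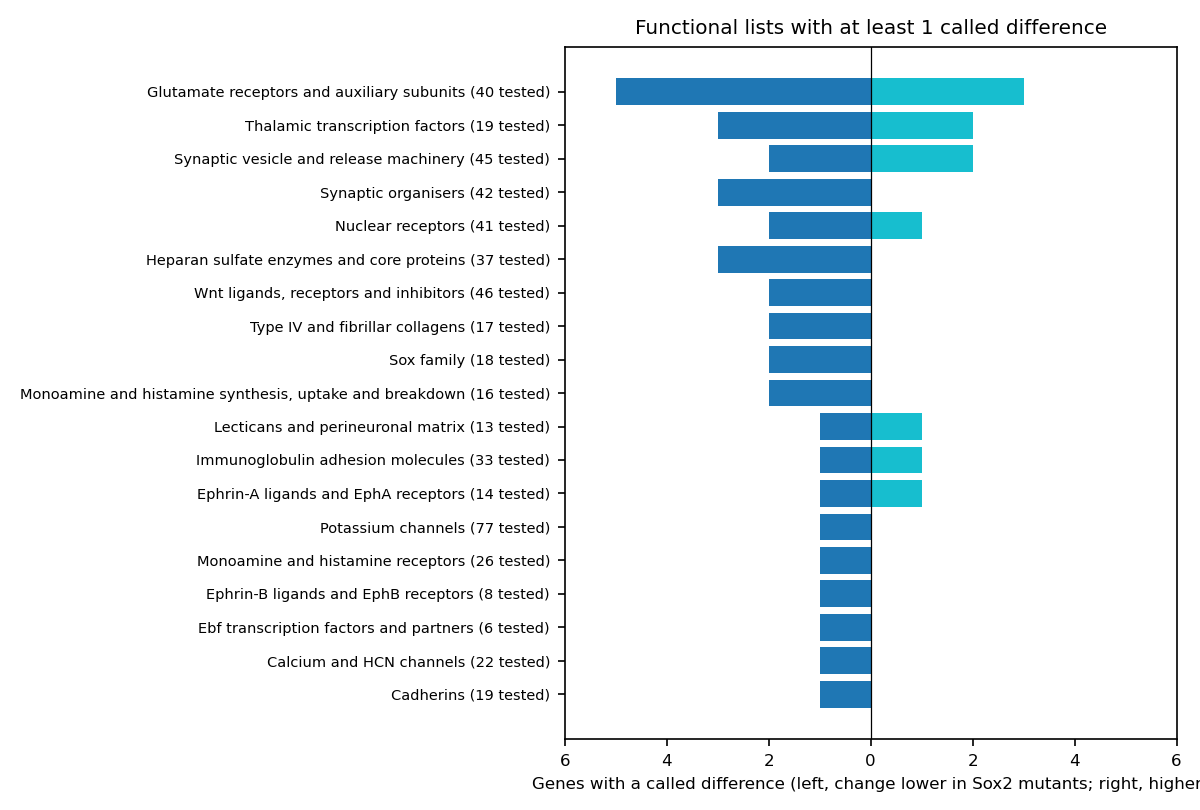
Number of genes with a called difference (horizontal axis) in each of the 19 functional lists that held any, with the number of genes tested beside the name; bars to the left count genes whose change was lower in *Sox2* mutants than in *Nr2f1* mutants, bars to the right genes whose change was higher. Glutamate receptors and thalamic transcription factors have members on both sides, and 12 of the 19 lists have them only on the left.

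Several lists held genes called in *Sox2* mutants without a single called difference between the lines. Of 31 semaphorins, plexins and neuropilins tested, 5 fell and 4 rose in *Sox2* mutants and 1 fell and 2 rose in *Nr2f1* mutants. Of 23 Slit-Robo, netrin and netrin-G genes 3 fell and 6 rose in *Sox2* mutants and 0 in *Nr2f1* mutants. Of 24 neuropeptides, granins and processing enzymes 3 fell and 3 rose in *Sox2* mutants and 3 fell and 1 rose in *Nr2f1* mutants. The 9 copines had 3 falls and 4 rises in *Sox2* mutants and 3 falls in *Nr2f1* mutants. Of 21 Notch pathway genes 5 rose in *Sox2* mutants and 0 in *Nr2f1* mutants. The lists of immediate early genes, acetylcholine receptors, GABA-A and glycine receptors, sodium channels, non-clustered protocadherins and neurotrophins held no difference called by edgeR either. Together these 11 lists held 195 genes tested, of which edgeR called 0, limma voom 1 and DESeq2 15, and 55 had an unadjusted p below 0.05. Of all 15989 genes tested, 1.44% had a called difference and 2583 had an unadjusted p below 0.05. Of the same genes 6.7% fell and 6.28% rose in *Sox2* mutants, and 1.38% fell and 1.31% rose in *Nr2f1* mutants. The lack of a call in lists this small therefore does not show that their changes were equal in the lines.

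The median span of the gene was 23.3 kb over all genes tested, 80.6 kb in the class that fell in *Sox2* mutants alone, 45.6 kb in the class that rose there, 104 kb and 216 kb in those that rose and fell in *Nr2f1* mutants alone, and 90.9 kb in the 22 genes that moved in opposite directions. The median level in controls was 19.3 CPM over all genes tested and 63.5, 40.7, 17, 66.2 and 16.4 CPM in these classes in the same order. These medians are a description.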

How the data were processed

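RNA was sequenced from 12 pools of dLGN, 3 in each of 4 groups taken from the sample labels. Per the methods, the authors mapped paired reads with STAR (mm10; version not given in the sources used here) to RefSeq transcripts and deposited RSEM expected counts per gene in 1 table for each line. Of these estimated counts 7.77% were not whole, and they were rounded here. How reads shared by similar or overlapping genes were assigned, and whether strand was used, could change single values. Both tables were joined by gene symbol. Genes were kept by filterByExpr (at least 10 counts, total 15), scaled by TMM and fitted in edgeR 4.0.16 (R 4.3.3) with 1 mean per group by the quasi-likelihood F-test. The interaction contrast was called at a Benjamini-Hochberg FDR below 0.01. Standard errors are the log2 change over the root of F, with 95% intervals. Named genes were the targets, the genes of smallest p by direction (10) and class (6), up to 4 called genes of each list, and those near the targets, except for results that are not reported here. Members and the 30 functional and 20 marker lists were chosen with earlier results of these data known. Libraries with the same number or letter in a line deviated together (correlations 0.18, 0.13 and 0.14 over 3 pairs), so a fit with that block is given where it changes a call. Alternatives were limma voom 3.58.1, DESeq2 1.42.0, other filters, scalings, covariates and left-out libraries. The tests were run on simulated data first. Gene positions were found in RefSeq GRCm38.p6 for 15955 of 15989 symbols (99.79%).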

Additional observations from a re-analysis of the deposited data

Results flagged for a closer look

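The effect of deletion differed between the lines for 231 genes by the interaction term, and each gene named by rule is given here with its log2 difference, counted as *Sox2* line minus *Nr2f1* line. Alone means that the change in the other line did not pass at an FDR below 0.01, and not that it was absent. The same FDR asked for a smaller p in *Nr2f1* mutants than in *Sox2* mutants. Among genes that fell in *Sox2* mutants alone the difference was -3.37 for *Hdc*, -3.07 for *Pparg*, -2.42 for *Hs6st2*, -2.25 for *Efna5*, -1.79 for *Slc18a2*, -1.79 for *Hs3st1*, -1.71 for *Rora*, -1.57 for *Sp9*, -1.36 for *Kcnf1*, -1.30 for *Ift57*, -1.20 for *Synpo2*, -1.15 for *Grik3*, -1.14 for *Lgr5*, -1.12 for *Cacng5*, -1.05 for *Tcerg1l*, -0.91 for *Slc17a6*, -0.90 for *Lrrtm1*, -0.69 for *Ephb6*, -0.57 for *Syt13* and -0.52 for *Elavl4*. For genes that rose in *Sox2* mutants alone it was 0.90 for *Vcan*, 0.92 for *Pcdhgc5*, 0.93 for *Tshz2*, 0.93 for *Grin3a*, 1.32 for *Trem2*, 1.48 for *P2ry12*, 1.53 for *Vsnl1* and 1.58 for *Dclk3*. Where the rise passed in *Nr2f1* mutants alone, it was -2.18 for *Adamts16*, -2.17 for *Crispld2*, -1.46 for *Nfe2l3*, -1.27 for *Brinp2*, -1.18 for *Mpped2*, -1.12 for *Cntn4*, -1.05 for *Cdh6*, -0.97 for *Cbln4*, -0.79 for *Hrk* and -0.78 for *Sfrp2*. Where the fall passed in *Nr2f1* mutants alone, it was 0.61 for *Foxp1*, 0.68 for *Fam172a*, 0.74 for *Zfp804a*, 0.77 for *Nrep*, 1.04 for *Grik1*, 1.19 for *Nr2f1*, 1.23 for *Stxbp6* and 1.41 for *Sv2b*. Genes lower in *Sox2* mutants and higher in *Nr2f1* mutants had differences of -2.95 for *Atp8b5*, -2.92 for *Col4a4*, -2.72 for *Col4a3*, -2.70 for *St14*, -2.21 for *Ebf1*, -1.93 for *Prox1*, -1.65 for *Ppp1r16b*, -1.29 for *Crtac1* and -0.86 for *Cacna1d*, and the reverse pattern gave 0.78 for *Epha5* and 0.93 for *Pou6f1*. Unequal changes in the same direction gave -1.51 for *Drd5*, -0.94 for *Adgrl2*, -0.84 for *Sox2*, -0.71 for *Sox13*, 0.57 for *Alcam* and 0.69 for *Cx3cr1*, and genes called in neither line -1.42 for *Gpc4* and -0.85 for *Hapln4*. No group of libraries was large enough for a check of outlying samples.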

How the results depend on the processing

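No named member changed sign under any alternative tried. The counts of called genes moved more. In the order all, lower in *Sox2*, higher in *Sox2*, *Sox2* mutants alone, *Nr2f1* mutants alone and opposite, they were 231, 178, 53, 155, 40 and 24 in the fit reported. DESeq2 gave 540, 345, 195, 355, 75 and 42, edgeR's likelihood ratio test 496, 338, 158, 316, 79 and 37, and the fit reported gave 538, 359, 179, 349, 69 and 56 at an FDR below 0.05. Each of these 3 held all 231 members. With the level of male-specific genes as a covariate they were 126, 104, 22, 98, 11 and 10, and with meningeal genes as a covariate 347, 241, 106, 246, 45 and 10. Without the 4 libraries of 1 sex, a choice made after seeing the data that leaves 2 libraries a group, they were 24, 22, 2, 18, 2 and 3, with fewer samples by construction. The replicate block of same-named libraries gave 302, 207, 95, 200, 47 and 28, and it took the call from *Hapln4*, *Syt13* and *Synpo2* and from no other named member. The covariate of male-specific genes took the call from both targeted genes, *Sox2* (FDR 0.0291) and *Nr2f1* (FDR 0.0474). It also took it from *Lrrtm1*, *Zfp804a*, *Cntn4*, *Nrep*, *Foxp1*, *Gpc4*, *Alcam*, *Cx3cr1* and *Slc17a6*. The same held for *Ephb6*, *Cdh6*, *Sv2b*, *Lgr5*, *Hapln4*, *Pparg*, *Elavl4*, *Syt13* and *Synpo2*. Leaving out 1 library in turn gave 133 to 308, 106 to 241, 27 to 67, 92 to 216, 13 to 44 and 11 to 30. The total fell to 133 without *Sox2* control 2, 148 without *Sox2* mutant 4, 139 without *Nr2f1* control D and 135 without *Nr2f1* mutant A. Without *Sox2* control 1 the genes higher in *Sox2* fell to 34. The genes called in *Nr2f1* mutants alone fell to 21 without *Nr2f1* control B, 18 without control E and 26 without mutant C, and the opposite genes to 15 and 13 without controls B and E. The other causes were not tested. No filter, a filter of 10 counts in every library, upper quartile scaling, the newer quasi-likelihood setting and limma voom gave totals of 276, 243, 237, 231 and 228. Upper quartile scaling took the call from *Syt13*, and limma voom took it from *Lgr5* and *Synpo2*. With 3 libraries a group the median SE of a difference was 0.15, so small differences could not be detected.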

Other observations

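Values are given for 5 further genes that rose in *Sox2* mutants alone. The genes in this paragraph and the next were chosen after their values were seen, and no list of their kinds was tested. *Ctsd*, the lysosomal protease cathepsin D, rose by 0.81 ± 0.08 (log2 ± SE, 3 libraries against 3) in *Sox2* mutants and changed by 0.06 ± 0.08 in *Nr2f1* mutants. The protease *Lgmn* changed by 0.83 ± 0.08 and 0.08 ± 0.08, the lysosomal sulfatase *Arsb* by 0.63 ± 0.06 and 0.04 ± 0.06, the pore-forming macrophage protein *Mpeg1* by 1.04 ± 0.11 and -0.01 ± 0.11, and the lipid carrier *Apoe* by 1.01 ± 0.09 and 0.31 ± 0.09. All 5 had a called difference, at an FDR between 0.000801 and 0.00827. The summed microglial markers and the summed astrocyte and radial glia markers were both higher in the same libraries. The part of either in these rises was not tested. Of 8 border macrophage markers edgeR called a difference for 0, with 0 at an unadjusted p below 0.05 and 0 called by DESeq2, and the difference lay below 0 for 7, with a median of -0.19.

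Of further members taken singly, *Large* and *Gyltl1b*, which extend the matriglycan chain of dystroglycan, fell in *Sox2* mutants and rose in *Nr2f1* mutants, by -0.48 ± 0.06 and 0.60 ± 0.06 for *Large* and by -0.86 ± 0.20 and 1.22 ± 0.20 for *Gyltl1b*. *Gyltl1b* was at 3.02, 2.80 and 2.49 CPM in *Sox2* controls and 1.30, 1.39 and 1.87 CPM in mutants, and at 1.87, 2.34 and 1.82 and 5.69, 4.50 and 3.86 CPM in *Nr2f1* controls and mutants. The O-glycan enzymes *Galnt14* and *Galnt9*, the N-glycan enzyme *Mgat5b* and the sulfotransferase *Chst2* fell in *Sox2* mutants alone, by 1.55 ± 0.11, 0.69 ± 0.06, 0.89 ± 0.06 and 0.96 ± 0.10, beside changes of -0.23 ± 0.10, -0.04 ± 0.06, -0.19 ± 0.06 and 0.03 ± 0.10 in *Nr2f1* mutants. The GDNF receptor genes *Gfra1* and *Ret* changed by -0.85 ± 0.12 and -0.83 ± 0.09 in *Sox2* mutants and by 0.46 ± 0.12 and -0.15 ± 0.09 in *Nr2f1* mutants, and both had a called difference. *Trpm8*, a cold-sensing ion channel, was at 3.85, 3.29 and 2.66 and 1.11, 0.937 and 1.30 CPM in *Sox2* controls and mutants and at 3.53, 3.63 and 3.16 and 8.71, 7.82 and 8.42 CPM in *Nr2f1* controls and mutants, opposite changes that both passed.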
